A study of Mus musculus with 12 samples.

Results

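Gene deserts are long stretches of the genome with no protein-coding gene, and open chromatin inside them marks candidate distal regulatory elements, non-coding transcripts and repeats. The regions described here were chosen by position alone. They are the autosomal regions of the deposited count table that lie more than 100 kb from every protein-coding RefSeq gene body of GRCm38, and they number 14988 of 188262 regions (7.96%). The counts come from ATAC-seq, in which the Tn5 transposase cuts and tags accessible DNA, of mouse long-term haematopoietic stem cells (LT-HSC) and multipotent progenitors (MPP). Phf6 is an X-linked gene for a chromatin-binding nuclear protein that is mutated in human leukaemias. The 12 libraries form 4 groups of 3: KO LT-HSC and KO MPP from male mice in which Phf6 was deleted by Cre-ERT2, a Cre recombinase that tamoxifen switches on (Phf6-/Y Rosa26+/Cre-ERT2), and WT LT-HSC and WT MPP from males with an intact floxed allele and no Cre (Phf6f/Y Rosa26+/+). The labels describe 20000 sorted LT-HSC per library from separate mice 8 weeks after tamoxifen, paired 75 nt reads and 1 sequencing pool. They do not describe how MPP were sorted, or whether an LT-HSC and an MPP library of the same number share a mouse. Every KO library carries Cre-ERT2 and no WT library does, so the effects of Cre-ERT2 and of Phf6 loss cannot be told apart.

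Total counts over all regions were between 22665988 and 48547234 per library. The 6 regions over Phf6 itself gave summed levels of 33.8 to 37.4 CPM in KO LT-HSC and 31.4 to 33.6 CPM in WT LT-HSC, and 38.2 to 39.3 CPM in KO MPP and 39.9 to 41.1 CPM in WT MPP. They do not check the deletion, since they need not lie in the deleted part. At marker genes, of 716 regions at 26 HSC identity genes such as Mecom, Hlf and Meis1, 104 were higher and 437 lower in WT MPP than in WT LT-HSC, and of 232 regions at 15 genes of multipotent and lymphoid-primed progenitors such as Flt3, Satb1 and Dntt, 118 were higher and 45 lower. Libraries hold a population of cells, so fewer cells of a type and less accessibility per cell cannot be told apart.

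Most enhancers act over distance: transcription factors bound at an open element contact a promoter through looping, and some genes of blood stem cells, such as Runx1, Meis1 and Myc, have elements spread over the gene-poor sequence beside them. Antigen receptor loci also count as deserts here, because their variable gene segments, which lymphocytes join by V(D)J recombination, are not listed as protein-coding genes in this annotation. The region list is therefore not purely intergenic. Of the 14988 desert regions, 496 (3.31%) lay inside an antigen receptor locus, 3287 (21.9%) overlapped the body of a long non-coding RNA gene, 3 overlapped a microRNA hairpin, and 11047 overlapped no RefSeq gene of any type.

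The sequences at hand for these regions are RefSeq windows of 300 bases around annotated start sites of non-coding genes, which 224 desert regions touched. Of those 224 regions, 5 were higher and 5 lower in KO than in WT LT-HSC (4.46% called, against 4.74% of all 186373 tested regions), and 13 were higher and 18 lower in KO than in WT MPP (13.8%, against 8.71% of all tested). A region is called where edgeR's quasi-likelihood test gives a Benjamini-Hochberg adjusted p under 0.05 over the whole table. 7 of these regions were called in both populations, 3 of them higher and 4 lower in both. The windows of 4 of the 7 are printed to show the start sites that carry the genotype differences given after them. They were chosen after their values were seen, and the sequences are RefSeq's for GRCm38.p6, 5′ to 3′ on the gene's own strand. Capitals mark matches on either strand to the motifs of 4 families of factors. That of AP-1, which Fos and Jun proteins bind, was searched as the letters TGANTCA. For RUNX proteins the letters were TGTGGT. For the GATA family they were AGATAA. For ETS proteins they were GGAAGT.
Gm26901, chr1:7398047-7398346, minus strand: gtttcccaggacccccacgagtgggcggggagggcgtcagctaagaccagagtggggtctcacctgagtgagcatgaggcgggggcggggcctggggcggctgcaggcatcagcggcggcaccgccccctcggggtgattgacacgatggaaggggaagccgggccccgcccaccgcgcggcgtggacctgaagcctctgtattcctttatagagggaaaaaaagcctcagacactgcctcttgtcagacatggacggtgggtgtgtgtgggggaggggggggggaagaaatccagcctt
Morrbid, chr2:128429302-128429601, minus strand: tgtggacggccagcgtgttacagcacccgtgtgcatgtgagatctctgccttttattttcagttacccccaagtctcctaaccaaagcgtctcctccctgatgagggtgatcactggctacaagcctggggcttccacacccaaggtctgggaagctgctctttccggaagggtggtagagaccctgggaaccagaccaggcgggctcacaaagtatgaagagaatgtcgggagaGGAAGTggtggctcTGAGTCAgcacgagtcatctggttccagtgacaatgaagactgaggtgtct
Gm41331, chr15:60141576-60141875, plus strand: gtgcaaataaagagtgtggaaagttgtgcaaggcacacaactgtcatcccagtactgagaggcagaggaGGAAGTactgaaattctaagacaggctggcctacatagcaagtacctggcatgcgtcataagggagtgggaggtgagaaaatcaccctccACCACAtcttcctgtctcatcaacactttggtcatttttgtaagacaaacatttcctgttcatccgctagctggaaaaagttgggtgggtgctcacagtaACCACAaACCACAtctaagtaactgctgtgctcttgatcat
Mexis, chr4:53270183-53270482, minus strand: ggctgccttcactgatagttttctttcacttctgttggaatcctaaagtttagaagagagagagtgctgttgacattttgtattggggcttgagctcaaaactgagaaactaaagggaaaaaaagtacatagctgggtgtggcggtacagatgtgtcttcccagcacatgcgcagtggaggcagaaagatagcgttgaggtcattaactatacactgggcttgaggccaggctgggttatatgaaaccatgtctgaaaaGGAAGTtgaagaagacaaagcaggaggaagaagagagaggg
The Gm26901 window held none of the 4 motifs. The Morrbid window held the AP-1 match TGAGTCA at bases 250 to 256 and an ETS match at bases 236 to 241, counted from its 5′ end. The Gm41331 window held 3 RUNX matches and 1 ETS match, and the Mexis window 1 ETS match. Of all 32851 RefSeq windows, 7.81% held the AP-1 letters, 16.8% the RUNX, 11.2% the GATA and 23.8% the ETS letters. Of the 247 windows touched by desert regions, the shares were 11.3%, 26.7%, 14.2% and 26.7%. A match describes letters only.

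Start sites of non-coding genes in deserts differed between genotypes in both directions. Gm26901, an uncharacterised non-coding gene, had 64.3, 63.3 and 65.9 CPM (counts scaled to library size) in KO LT-HSC against 57.6, 58.2 and 51.3 CPM in WT LT-HSC, and 71.9, 72.0 and 72.3 CPM in KO MPP against 61.4, 62.1 and 56.9 CPM in WT MPP. All KO values were above all WT values of the same population. The log2 fold change was 0.21 ± 0.06 (SE) in LT-HSC (edgeR adjusted p = 0.0313) and 0.26 ± 0.06 in MPP (edgeR adjusted p = 0.00437). Morrbid, a long non-coding RNA known to repress the cell death gene Bcl2l11 in short-lived myeloid cells, has its start site 266.6 kb from that gene. Its region had 6.14, 7.04 and 7.30 CPM in KO LT-HSC against 5.79, 5.03 and 4.63 CPM in WT LT-HSC, and 10.1, 10.9 and 10.4 CPM in KO MPP against 7.87, 8.36 and 7.00 CPM in WT MPP. The groups did not overlap in either population, and the log2 fold change was 0.40 ± 0.11 in LT-HSC (edgeR adjusted p = 0.0377) and 0.43 ± 0.10 in MPP (edgeR adjusted p = 0.00721). The LT-HSC calls of both regions were lost when any of several libraries was left out (KO LT-HSC 2 and 3 and WT LT-HSC 3 for both, KO LT-HSC 1 for Gm26901 and WT LT-HSC 2 for Morrbid), and with the gene-end covariate described with the counts of calls. Both were also lost with scaling to total counts, a level-dependent (loess) offset or a filter of at least 1 CPM in 3 libraries. The Morrbid LT-HSC call was also lost when only the compared groups were fitted. The adjusted p of the LT-HSC comparison reached 0.251 for Gm26901 and 0.177 for Morrbid. The Morrbid MPP call was lost without KO MPP 2 or with that covariate (up to 0.0725), and the Gm26901 MPP call with that covariate (0.0861).

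Gm41331, another uncharacterised non-coding gene, went the other way. Its region had 5.95, 2.72 and 4.85 CPM in KO LT-HSC against 9.49, 8.06 and 7.70 CPM in WT LT-HSC, and 7.48, 3.73 and 5.74 CPM in KO MPP against 11.9, 12.5 and 13.1 CPM in WT MPP. KO values were below WT values throughout, with KO library 2 lowest in both populations. The log2 fold change was -0.88 ± 0.18 in LT-HSC (edgeR adjusted p = 0.00375, and 0.0565 at most when 1 setting or library was changed, which happened without KO LT-HSC 2 or with DESeq2) and -1.18 ± 0.17 in MPP (edgeR adjusted p = 6.05e-05). Mexis, a long non-coding RNA of macrophages that amplifies expression of the cholesterol exporter gene Abca1, starts 109.9 kb from Abca1. Its region had 0.743, 0.955 and 0.713 CPM in KO LT-HSC against 1.2, 1.46 and 1.24 CPM in WT LT-HSC, and 5.69, 5.73 and 6.58 CPM in KO MPP against 7.34, 8.65 and 8.32 CPM in WT MPP. It was lower in KO in both populations, by a log2 fold change of -0.69 ± 0.21 in LT-HSC (edgeR adjusted p = 0.0469) and -0.43 ± 0.11 in MPP (edgeR adjusted p = 0.0147). Leaving out any LT-HSC library, KO MPP 1 or KO MPP 2 ended the LT-HSC call. That call was also lost with DESeq2, the gene-end covariate or a fit of only the compared groups, and its adjusted p reached 0.171. Leaving out KO MPP 1, KO MPP 2 or WT MPP 2, or adding the gene-end covariate, ended the MPP call (up to 0.169). The 3 desert regions over microRNA hairpins, at Mir137, Mir29b-1 and Mir344i, were not called between genotypes. In MPP the region at Mir29b-1, a microRNA that targets extracellular matrix and DNA methyltransferase transcripts, was higher than in LT-HSC in both genotypes, by a log2 fold change of 1.18 in KO and 1.37 in WT. The region at Mir137 was lower in MPP, by -1.35 in KO and -1.40 in WT, and so was that at Mir344i, by -2.76 in KO and -3.51 in WT. All 3 lay at or below 1.40 CPM in every library.

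Desert regions were weaker than other regions. Their mean level over all libraries had a median of 1.07 CPM (0.261 to 8.52 CPM from the 5th to the 95th percentile), against 1.63 CPM for the 57880 intergenic regions within 100 kb of a gene, 1.65 CPM for the 86681 regions in gene bodies and 7.14 CPM for the 23768 regions within 1 kb of a gene end. Median length was 450 bp, as for the other kinds (451 to 460 bp), and desert regions together covered 7.39 Mb. The filter on low counts kept 14423 of them and left out 565 (3.77%, against 0.764% of all other regions). The distance to the nearest gene had a median of 193 kb, with quartiles of 136 and 316 kb.

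Deserts were unevenly filled. The 14988 regions fell into 1175 deserts, each the gap between adjacent protein-coding genes, with a median of 7 regions. Of these, 136 deserts held 1 region, and 53 held 50 or more and together 3889 regions. The fullest were the gap from Gm36448 to Dad1, which is the T cell receptor alpha locus (234 regions), the gap from Adam6a to Zfp386, which is the immunoglobulin heavy chain locus, Zeb2 to Acvr2a (114 regions over 3697 kb, beside the transcription factor gene Zeb2), Nmbr to Cited2 (113 regions) and Cd83 to Jarid2 (111 regions). Chromosome 13 had the highest share of its regions in deserts (13.6%) and chromosome 7 the lowest (4.16%). In distance from the nearest gene, 1698 regions were over 500 kb away and 373 over 1000 kb, with a maximum of 2140 kb.

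A few desert regions held counts far out of scale. 12 regions averaged over 100 CPM and together took 1.23% to 2.99% of a library's counts. The highest, chr2:98666764-98667167, had 10900, 13600 and 9830 CPM in KO LT-HSC, 18300, 10600 and 10200 CPM in WT LT-HSC, 8830, 9870 and 11100 CPM in KO MPP, and 7010, 9290 and 9810 CPM in WT MPP. WT LT-HSC 1 stood apart, and its 12 regions took the 2.99%. Another, chr12:3109769-3110175 at the end of its chromosome's first desert, had 499, 642 and 454 CPM in KO LT-HSC against 1420, 731 and 764 CPM in WT LT-HSC, a log2 fold change of -0.87 ± 0.16 (edgeR adjusted p = 0.0015). Of the 12, 3 are neighbours on chromosome 17, and 1 of these overlaps Rn18s-rs5, an 18S ribosomal RNA related sequence. Results on summed counts are therefore given with and without the 12.

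The share of all counts that fell in desert regions was lower in MPP than in LT-HSC, and not shown to differ between genotypes. KO MPP libraries had 4.56%, 4.78% and 4.90% and WT MPP libraries 4.47%, 4.87% and 5.13%. KO LT-HSC libraries had 5.42%, 5.77% and 5.27% and WT LT-HSC libraries 6.85%, 5.61% and 5.56%. All 6 MPP libraries lay below all 6 LT-HSC libraries, while KO and WT overlapped in both populations. The mean difference between MPP and LT-HSC was -0.961 percentage points (2-sided exact permutation test within genotype, p = 0.005, the smallest that 400 permutations allow; adjusted p = 0.01 over the 6 tests of this family). Between KO and WT it was -0.517 points in LT-HSC (exact permutation p = 0.4, adjusted 0.48, and -0.0968 points without WT LT-HSC 1), -0.0768 points in MPP (exact permutation p = 0.8, adjusted 0.8) and -0.297 points over both (exact permutation p = 0.26, adjusted 0.39). With 3 libraries on each side, the smallest p such an exact test allows is 0.1.

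Without the 12 regions the genotypes separated. KO LT-HSC libraries then averaged 3.77% ± 0.0144 and WT LT-HSC libraries 3.92% ± 0.0495 (SD, n = 3 each), and KO MPP libraries averaged 3.17% ± 0.0367 and WT MPP libraries 3.37% ± 0.0992 (SD, n = 3 each). The difference between KO and WT over both populations was -0.178 points (exact permutation p = 0.005), and within each population the KO and WT libraries did not overlap (exact permutation p = 0.1, the smallest possible). With libraries of the same number moved together, the difference over both populations had p = 0.1 in an exact permutation test, again the smallest possible. This removal was chosen after the data were seen. The share of counts at gene ends was 39.2% to 39.6% in KO LT-HSC against 37.8% to 38.9% in WT LT-HSC, and 41.0% to 41.4% in KO MPP against 39.2% to 41.0% in WT MPP. It leaned to higher in KO, and its part in the result was not tested.

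**Figure D1:**
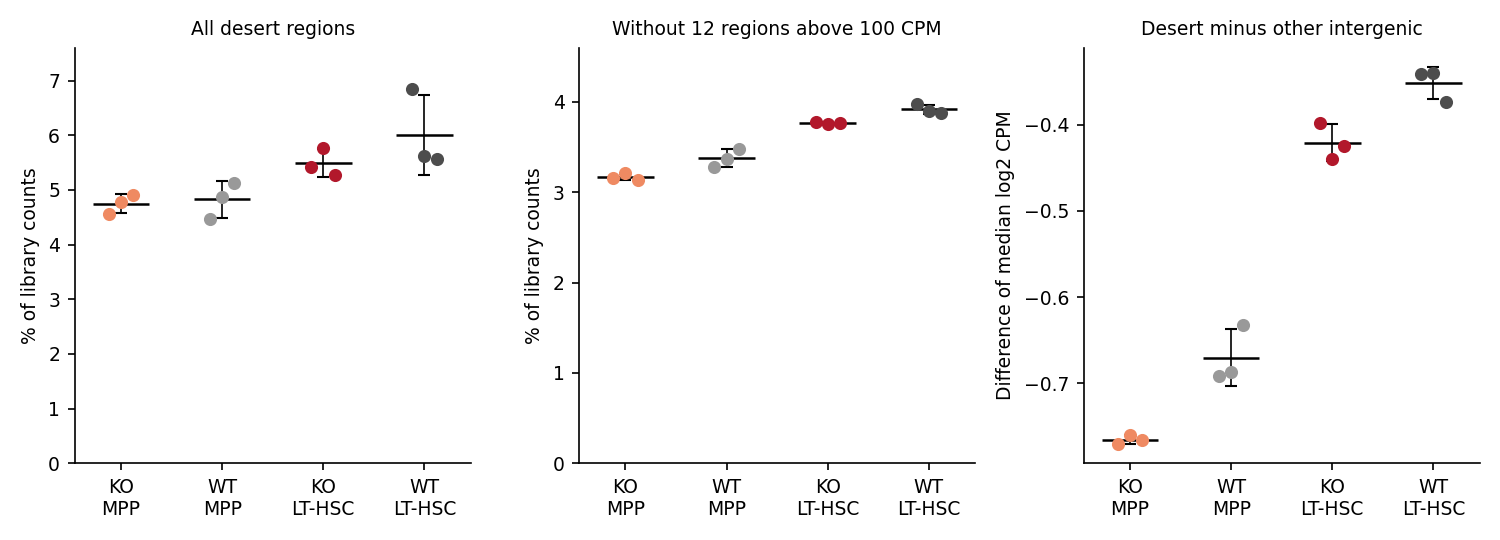
Left and middle, share of each library's counts in desert regions (percent), with all desert regions and without the 12 above 100 CPM; right, median log2 CPM of desert regions minus that of intergenic regions within 100 kb. Points are libraries, lines the group means and bars ± SD, n = 3 per group. MPP libraries sit below LT-HSC libraries in all panels, WT LT-HSC 1 stands apart at 6.85% on the left, and KO lies below WT within each population in the middle and right panels.

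Typical desert regions, as opposed to their sum, were also set against intergenic regions nearer to genes. The median log2 CPM of desert regions minus that of intergenic regions within 100 kb was -0.77, -0.76 and -0.77 in KO MPP and -0.69, -0.69 and -0.63 in WT MPP. It was -0.40, -0.44 and -0.42 in KO LT-HSC and -0.34, -0.34 and -0.37 in WT LT-HSC. The gap was wider in MPP than in LT-HSC and, within each population, wider in KO than in WT, with no overlap. The difference of the gap was -0.33 log2 units for MPP minus LT-HSC (exact permutation p = 0.005, adjusted 0.01) and -0.08 for KO minus WT (exact permutation p = 0.005, adjusted 0.01). The genotype result gave p = 0.1, the smallest possible, when libraries of the same number were moved together, and was -0.06 (exact permutation p = 0.015) without the antigen receptor loci.

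In LT-HSC, more desert regions were lower than higher in KO, although calls over the whole table were mostly higher. Of 14423 tested desert regions, 249 (1.73%) were higher and 386 (2.68%) lower in KO LT-HSC than in WT LT-HSC, together 4.40%. Over all tested regions 3.27% were higher and 1.47% lower, together 4.74%. Intergenic regions within 100 kb had 2.59% higher and 1.68% lower, gene bodies 2.64% and 1.25%, and gene ends 8.26% and 0.973%. The median log2 fold change was -0.08 over desert regions and near 0 over all tested regions (-0.00). Among the called desert regions, 11 were higher and 191 lower by at least 2-fold. Over all tested regions these counts were 204 and 979, so large changes leaned to lower there too. Of the 635 called desert regions, 612 had no overlap between KO and WT libraries (24.1% of all tested desert regions and 24.2% of all tested regions had none).

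The excess of lower calls depended on how the counts were scaled and modelled. With DESeq2, which gave no adjusted p to 7814 desert regions with low counts, 188 were higher and 131 lower. With the share of counts at gene ends as a covariate 75 were higher and 48 lower. With scaling to total counts 137 were higher and 495 lower, and with a level-dependent (loess) offset 202 were higher and 254 lower with a median of -0.02. The count of 635 became 310, 219 or 304 when KO LT-HSC 1, 2 or 3 was left out and 345 or 362 when WT LT-HSC 1 or 2 was.

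The direction went with the level of the region. In 4 equal groups of tested desert regions from the weakest to the strongest, 8, 12, 47 and 182 regions were higher and 106, 83, 92 and 105 lower in KO LT-HSC. The median log2 fold change ran -0.30, -0.14, -0.03 and 0.04. Intergenic regions within 100 kb in the same ranges of level had medians of -0.25, -0.14, -0.04 and 0.05, with 12, 43, 196 and 1231 higher and 131, 209, 280 and 345 lower. Weak regions of both kinds leaned to lower in KO, and the strongest desert regions, with 182 higher and 105 lower, leaned less to higher than the intergenic ones.

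Among desert regions above the median level with no overlap between groups, the 6 with the largest changes in each direction were examined. Lower in KO was Peak_122647 at chr4:64497691-64498225, in the gap between Tnc, which encodes the matrix protein tenascin C, and the metalloprotease gene Pappa. It had 3.11, 4.74 and 3.96 CPM in KO LT-HSC against 16.2, 8.65 and 9.23 CPM in WT LT-HSC, a log2 fold change of -1.54 ± 0.20 (edgeR adjusted p = 4.5e-05). WT LT-HSC 1 was the highest library, and all KO values were below all WT values. Peak_16191 at chr10:50426348-50426993, between the kainate receptor gene Grik2 and the helicase gene Ascc3, had 0.908, 0.991 and 2.05 CPM in KO LT-HSC against 3.84, 3.96 and 2.92 CPM in WT LT-HSC (-1.51 ± 0.25, edgeR adjusted p = 0.000528). Peak_72362 between Gbe1 and the axon guidance receptor gene Robo1, Peak_133119 between Clnk and Hs3st1, Peak_22344 between Slc16a7 and Lrig3, and Peak_122921 between Nfib and Zdhhc21 followed, with log2 fold changes of -1.25 to -1.75. These 4 were all under 1.5 CPM in every LT-HSC library, and each lost the call without KO LT-HSC 1, among other fits (adjusted p up to 0.0684, 0.208, 0.208 and 0.134).

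Regions named as higher in KO LT-HSC varied in level, and Peak_143876 and Peak_47153 were at most 1.11 and 1.2 CPM in the LT-HSC libraries. Peak_40719 at chr12:93576905-93577317, 2114.7 kb from the adhesion gene Flrt2, had 17.6, 24.7 and 21.7 CPM in KO LT-HSC against 11.9, 12.2 and 8.08 CPM in WT LT-HSC (0.98 ± 0.17, edgeR adjusted p = 0.000814). Peak_123428 at chr4:88994421-88994938, 142.4 kb from Mtap, an enzyme gene of the methionine salvage pathway, had 2.50, 3.25 and 3.03 CPM in KO LT-HSC against 1.32, 1.46 and 1.48 CPM in WT LT-HSC (1.03 ± 0.21, edgeR adjusted p = 0.00321). Peak_122705 at chr4:67380066-67380692, 533.5 kb from the endotoxin receptor gene Tlr4, had 3.17, 3.36 and 3.38 CPM in KO LT-HSC against 1.86, 1.55 and 1.62 CPM in WT LT-HSC (0.97 ± 0.17, edgeR adjusted p = 0.000845, and 0.0666 with the gene-end covariate). By the naming rule, every KO library was above every WT library in each of the 3. The other 3 by this rule, Peak_143876 inside the non-coding gene Lncpint (1.12), Peak_85879 between Zfp608 and Gramd3 (0.96) and Peak_47153 between Gadd45g and Diras2 (0.93), each lost the call without KO LT-HSC 2, Peak_143876 and Peak_47153 also without KO LT-HSC 3 or WT LT-HSC 1, Peak_85879 also without KO LT-HSC 1, and Peak_47153 also without WT LT-HSC 2 or 3 and in other fits. Peak_143876 and Peak_85879 also lost the call with the gene-end covariate. The adjusted p of the 3 reached 0.0874, 0.186 and 0.096. In all, 4 of the 12 named regions kept the call in every fit in which they had an adjusted p.

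In MPP the desert regions again had more lower than higher calls in KO. Of 14423 tested, 415 (2.88%) were higher and 786 (5.45%) lower in KO MPP than in WT MPP, together 8.33%. Over all tested regions 5.12% were higher and 3.59% lower, together 8.71%. Intergenic regions within 100 kb had 4.08% and 3.85%, gene bodies 4.50% and 3.51%, and gene ends 11.5% and 2.43%. The median log2 fold change was -0.11 over desert regions and -0.01 over all tested regions. Among the called desert regions, 36 were higher and 215 lower by at least 2-fold, and over all tested regions 449 and 1009. Large changes thus leaned to lower in the whole table too. Of the 1201 called desert regions, 1133 had no overlap between groups (26.6% of all tested desert regions and 28% of all tested regions had none).

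The lower calls stayed in the majority under the other fits given for LT-HSC: 295 higher and 403 lower with DESeq2 (6542 regions without an adjusted p), 206 and 266 with the gene-end covariate, 404 and 725 with the loess offset, and 336 and 912 with scaling to total counts. The count of 1201 became 496 without KO MPP 2, 495 without KO MPP 3 and 707 without WT MPP 2. By level, from weakest to strongest, 6, 42, 81 and 286 regions were higher and 113, 141, 205 and 327 lower, with medians of -0.29, -0.14, -0.08 and -0.01. Intergenic regions in the same ranges had medians of -0.18, -0.08, -0.02 and 0.01. Of these intergenic regions, from weakest to strongest, 35, 147, 404 and 1749 were higher and 172, 290, 527 and 1214 lower in KO MPP. Lower calls thus prevailed in both kinds in all but the strongest group. There the intergenic balance was opposite to that of desert regions.

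**Figure D2:**
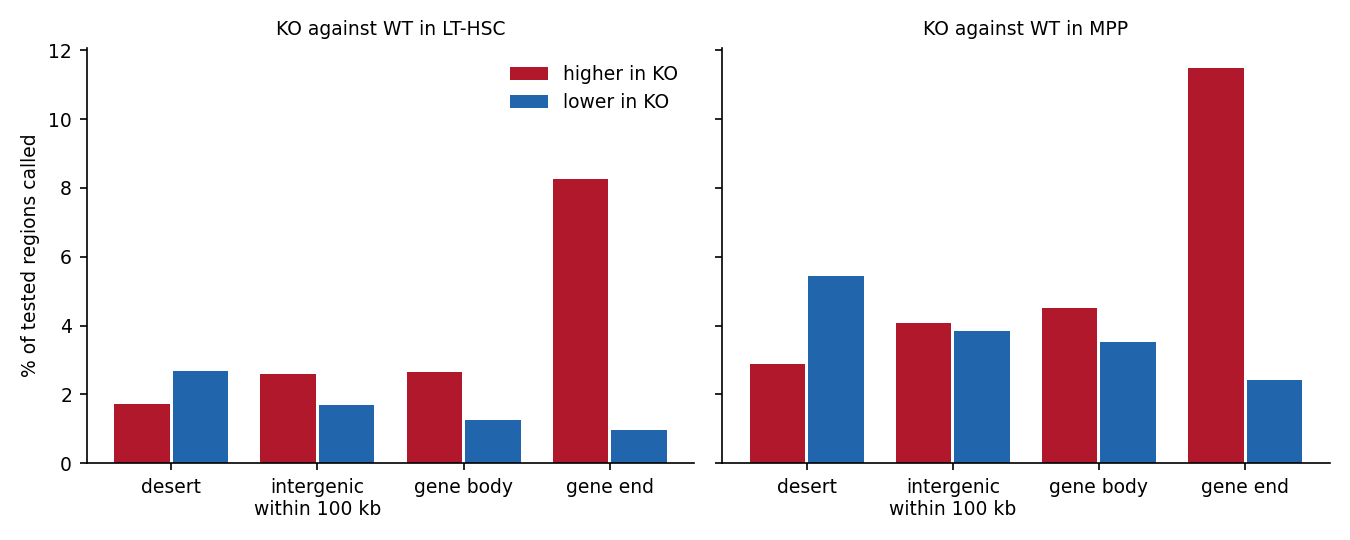
Percent of tested regions called higher (red) or lower (blue) in KO than in WT for desert, intergenic, gene body and gene end regions, in LT-HSC (left) and MPP (right). Desert regions have 1.73% higher and 2.68% lower in LT-HSC and 2.88% higher and 5.45% lower in MPP. The other kinds, each taken as a whole, have more higher than lower calls.

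By the same rule for naming, 6 lower and 6 higher regions were examined in MPP. Peak_56083 at chr14:58505817-58506273, 393.0 kb from the growth factor gene Fgf9, had 2.22, 1.43 and 1.40 CPM in KO MPP against 5.29, 4.63 and 5.07 CPM in WT MPP (-1.60 ± 0.16, edgeR adjusted p = 5.09e-07). Peak_16186 at chr10:50311988-50312999, in the Grik2 to Ascc3 gap, had 6.04, 4.30 and 3.77 CPM in KO MPP against 10.5, 12.5 and 15.4 CPM in WT MPP (-1.47 ± 0.15, edgeR adjusted p = 5.09e-07). KO and WT were far apart in both. Peak_101676, 487.1 kb from the synaptic adhesion gene Lrrc4c, had 0.312, 0.370 and 0.216 CPM in KO MPP against 0.952, 0.709 and 0.778 CPM in WT MPP (-1.42 ± 0.28, edgeR adjusted p = 0.00189). These 3 calls held in every fit. Peak_4085 between Slc4a3 and Epha4, Peak_75236 between Pabpc6 and Qk, and Peak_54432 between 4930474N05Rik and Ccser2 had log2 fold changes of -2.1, -1.97 and -1.85 at under 1 CPM in every MPP library, and each lost the call without KO MPP 2 or WT MPP 2 (adjusted p up to 0.112, 0.101 and 0.1).

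Higher in KO MPP was Peak_110775 at chr3:41417100-41417613, 138.1 kb from Jade1, a gene for a subunit of a histone acetyltransferase complex. It had 2.57, 2.84 and 3.07 CPM in KO MPP against 1.33, 0.813 and 1.01 CPM in WT MPP (1.44 ± 0.19, edgeR adjusted p = 2.48e-05). The Tlr4 to Brinp1 region Peak_122705 had 1.72, 2.0 and 2.13 CPM in KO MPP against 1.03, 0.855 and 0.643 CPM in WT MPP (1.2 ± 0.19, edgeR adjusted p = 0.000269). Peak_98142, 100.1 kb from Ppp6c and just inside the distance limit, had 0.819, 1.04 and 0.916 CPM in KO MPP against 0.326, 0.229 and 0.541 CPM in WT MPP (1.43 ± 0.28, edgeR adjusted p = 0.00164). By the naming rule, no KO library overlapped a WT library in any of the 3. Peak_20672, 106.1 kb from Kitl, which encodes the ligand of the Kit receptor, had 0.546, 0.370 and 0.674 CPM in KO MPP against 0.175, 0.250 and 0.237 CPM in WT MPP (1.23 ± 0.32, edgeR adjusted p = 0.0156, and up to 0.133 without KO MPP 3 or WT MPP 1 or with the covariate). Peak_8319 near Rgs18 (1.29) lost the call with the covariate (adjusted p = 0.0664), and Peak_136116 between Rasgef1b and Vamp9 (1.25) without KO MPP 3 (adjusted p = 0.0918).

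Changes in the 2 populations were compared region by region. KO and WT libraries of LT-HSC and of MPP are separate libraries, but whether they share mice is not given. Of the desert regions, 213 were called in both comparisons, which is 33.5% of the 635 called in LT-HSC and 17.7% of the 1201 called in MPP. Over all tested regions these shares were 40.9% and 22.3%. Of the 213, 103 were higher in KO in both, 109 were lower in both and 1 went opposite ways. Peak_122647 beside Tnc was also lower in MPP, with 2.81, 2.52 and 3.02 CPM in KO MPP against 4.31, 6.82 and 8.90 CPM in WT MPP (-1.25 ± 0.21, edgeR adjusted p = 0.000524). Peak_56083 beside Fgf9 was also lower in LT-HSC, with 0.798, 0.637 and 0.534 CPM in KO LT-HSC against 1.55, 1.40 and 1.48 CPM in WT LT-HSC (-1.13 ± 0.23, edgeR adjusted p = 0.00405). For both regions every WT library was above every KO library in both populations.

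**Figure D3:**
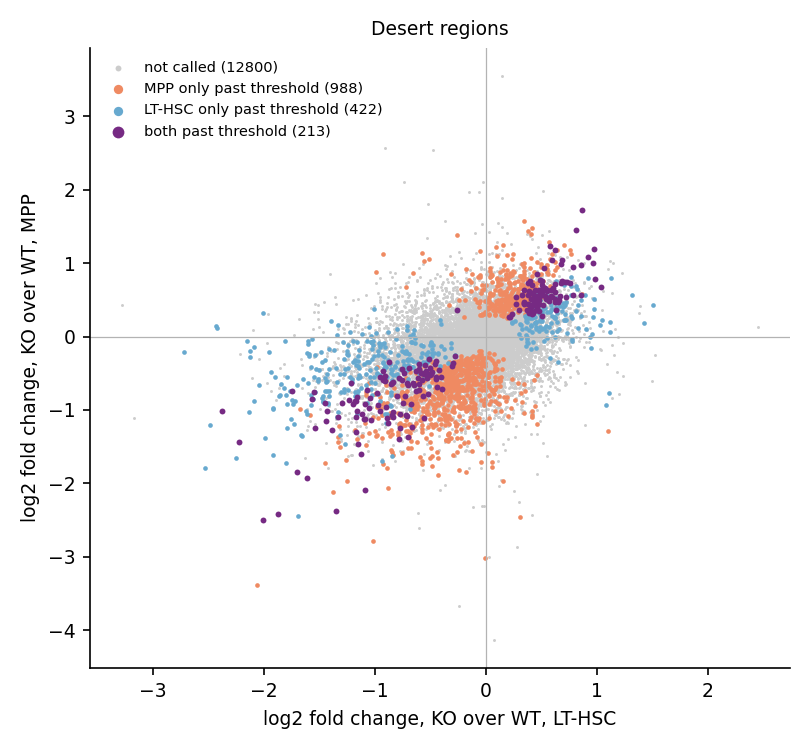
Log2 fold change KO over WT in LT-HSC (x axis) and in MPP (y axis) of each tested desert region, coloured by call. The 213 regions called in both lie in the upper right (103) or lower left (109), with 1 exception, and 988 are called in MPP only and 422 in LT-HSC only.

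The interaction test asked whether the genotype effect differed between populations. It called 3 desert regions (0.0208% of those tested, against 0.00805% of all tested regions), all with a higher effect in MPP. Of the 14423 tested desert regions, 1137 had an unadjusted edgeR p under 0.05, as did 14082 of all 186373 tested regions. DESeq2 called 9. The count became 0 without KO LT-HSC 2, and 1 without KO LT-HSC 3, KO MPP 2, KO MPP 3 or WT LT-HSC 1. The one with the smallest p, Peak_109017 at chr3:5860442-5860845, is among the 12 regions above 100 CPM. It had 270, 262 and 305 CPM in KO MPP against 226, 225 and 199 CPM in WT MPP, and 148, 130 and 123 CPM in KO LT-HSC against 163, 167 and 154 CPM in WT LT-HSC. KO was above WT in MPP and below it in LT-HSC, and the effects differed by 0.63 ± 0.09 on the log2 scale (edgeR adjusted p = 0.00227).

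Far more desert regions differed between the populations than between the genotypes. In KO, 4219 desert regions were higher and 6109 lower in MPP than in LT-HSC (71.6% called, against 67.7% of all tested regions, of which 33.3% were higher and 34.4% lower). In WT, 4401 were higher and 6182 lower (73.4%, against 69.8% of all tested, 34.6% higher and 35.2% lower). The median log2 fold change of desert regions was -0.24 in KO and -0.22 in WT, where all tested regions had 0.00 and 0.01. Of the called regions, 9375 were called in both genotypes (90.8% of the KO and 88.6% of the WT calls), 3770 of them higher, 5602 lower and 3 in opposite directions. In WT, 2895 of the 14423 tested desert regions were higher and 4246 lower by at least 2-fold, against 33437 and 34707 of all 186373 tested regions. By at least 4-fold, 1016 desert regions were higher and 1812 lower, with no count taken over the whole table. Weak intergenic regions within 100 kb did not share the lean to LT-HSC: in the weakest level range the median for MPP over LT-HSC in WT was -0.10 for desert regions and 0.40 for them, and in the strongest -0.22 and 0.03.

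Single desert elements were open in 1 population and almost closed in the other. Peak_130032 at chr4:153727959-153728400, between Ajap1 and A430005L14Rik, had 8.37, 7.36 and 9.37 CPM in WT MPP against 0.086, 0.169 and 0.261 CPM in WT LT-HSC (5.57 ± 0.22, edgeR adjusted p = 4.91e-20). In KO MPP it had 4.33, 3.51 and 4.34 CPM, below every WT MPP library (KO over WT in MPP -1.04 ± 0.13, edgeR adjusted p = 1.63e-05). Peak_174872, 170.8 kb from the lymphoid transcription factor gene Ets1, had 6.34, 7.38 and 3.08 CPM in WT MPP against 0.086, 0.140 and 0.289 CPM in WT LT-HSC (5.03 ± 0.33, edgeR adjusted p = 9.82e-15). The others of the 6 highest were Peak_98572 between Mmadhc and Rnd3 (4.95), Peak_176507 beside Zc3h12c (4.72) and Peak_42814 and Peak_42691 in the immunoglobulin heavy chain locus (5.07 and 4.63). In KO the 3 highest were Peak_14508, 194.5 kb from the kinase gene Sgk1 (5.53), Peak_176507 (5.14) and Peak_42777 in the heavy chain locus (4.90). Fitted folds of this size rest on few reads in LT-HSC.

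In the opposite direction, Peak_4074 at chr1:75798578-75799021, between Slc4a3 and the ephrin receptor gene Epha4, had 0.125, 0.125 and 0.271 CPM in WT MPP against 8.58, 7.98 and 8.05 CPM in WT LT-HSC (-5.63 ± 0.22, edgeR adjusted p = 2.89e-20). The other 5 named in WT, Peak_72085, Peak_54425, Peak_173590, Peak_72890 and Peak_112293, and the 3 named in KO, Peak_83699, Peak_115785 and Peak_72874, lay at 0 to 0.101 CPM in the MPP libraries of that genotype and at 1.97 to 5.85 CPM in its LT-HSC libraries. Their fitted folds rest on a few reads in MPP and are not given. All 12 regions named in WT and all 6 named in KO kept the call in every fit.

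The immunoglobulin heavy chain locus was more open in MPP than in LT-HSC, and its lower calls in KO had no higher ones beside them. Its long array of V segments opens in the B lineage before recombination. The locus held 214 desert regions on chromosome 12, 211 of them tested, and 174 were higher and 8 lower in MPP than in LT-HSC in KO, and 178 and 2 in WT (median log2 fold change 1.60 in KO and 1.62 in WT). Between genotypes, 0 were higher and 34 lower (16.1%) in KO than in WT MPP, against 3.59% lower over all tested and 5.45% over all desert regions. Of the 211 log2 fold changes 157 were below 0, with a median of -0.20. In LT-HSC 0 were higher and 4 lower (1.90%), against 1.47% of all tested and 2.68% of all desert regions, with a median of -0.17. Summed over the locus, KO MPP libraries had 692, 662 and 660 CPM against 738, 820 and 804 CPM in WT MPP, and KO LT-HSC libraries 247, 246 and 242 CPM against 277, 254 and 283 CPM in WT LT-HSC. In both populations every KO sum was below every WT sum.

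The lower calls in KO MPP were spread over the array. From the constant region end, the stretches at 0 to 500, 500 to 1000, 1000 to 1500, 1500 to 2000 and 2000 to 3000 kb held 15, 15, 38, 49 and 94 tested regions, of which 2, 6, 9, 8 and 9 were lower in KO MPP and 0 higher. Their median log2 fold changes KO over WT in MPP were -0.32, -0.64, -0.37, -0.23 and -0.14. The stretch at 500 to 1000 kb, with only 15 regions, had summed levels of 14.3, 11.4 and 15.2 CPM in KO MPP against 22.1, 21.1 and 22.6 CPM in WT MPP, and the one at 2000 to 3000 kb 354, 337 and 333 CPM in KO MPP against 363, 410 and 395 CPM in WT MPP. In MPP every KO sum was below every WT sum in each of the 5 stretches, while in LT-HSC the sums of the first 3 stretches overlapped.

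Peak_42766 and Peak_42688, over single V segments, were picked from the called regions of the locus, so their direction was fixed by that choice. Peak_42766 at chr12:115334861-115335299, over Ighv1-59, had 11.0, 10.1 and 10.2 CPM in KO MPP against 14.7, 18.8 and 14.8 CPM in WT MPP (-0.64 ± 0.10, edgeR adjusted p = 0.000184). In LT-HSC the same region had 1.68, 1.52 and 1.69 CPM in KO against 2.87, 2.70 and 3.24 CPM in WT (-0.85 ± 0.16, edgeR adjusted p = 0.0018). Peak_42688 at chr12:114513138-114513554, over Ighv1-5, had 7.6, 6.52 and 7.36 CPM in KO MPP against 10.3, 12 and 13.2 CPM in WT MPP (-0.73 ± 0.11, edgeR adjusted p = 0.000137). KO libraries were below WT libraries in each case. Peak_42814, over Ighv1-71, differed by -0.19 ± 0.11 in MPP and was not called (edgeR adjusted p = 0.307).

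**Figure D4:**
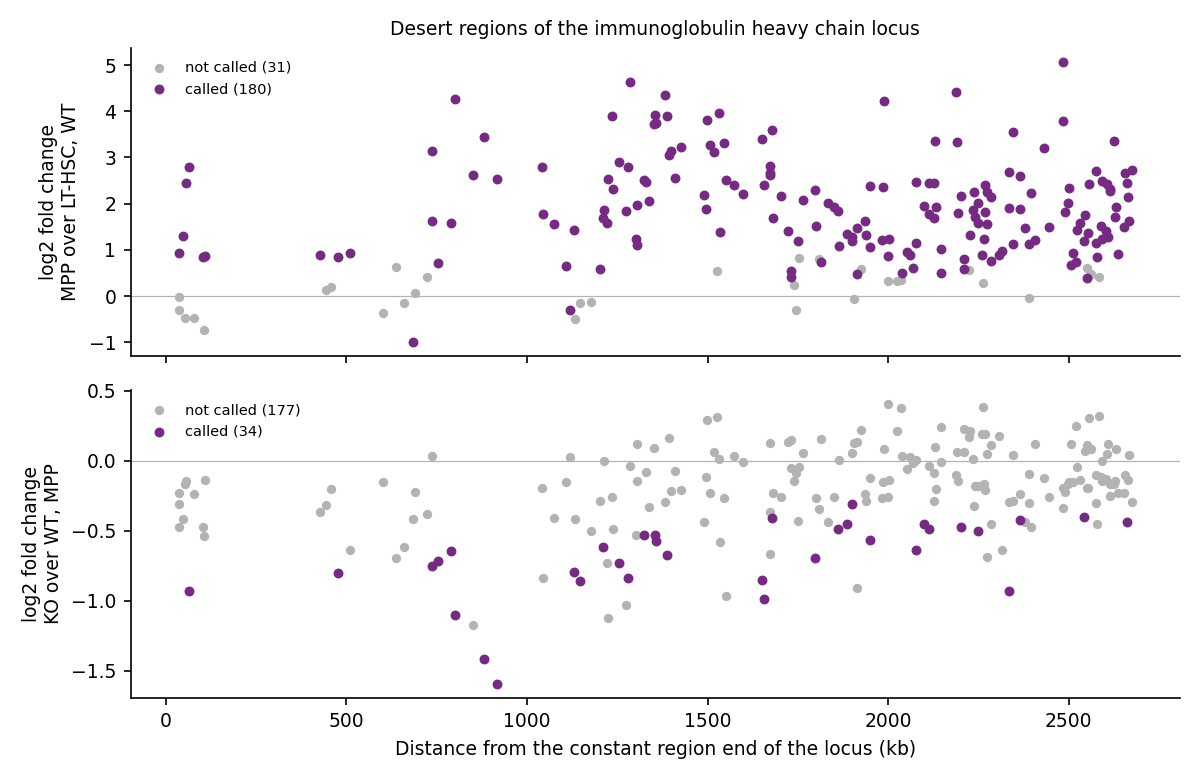
Log2 fold change of each tested desert region of the immunoglobulin heavy chain locus by distance in kb from its constant region end, MPP over LT-HSC in WT (top) and KO over WT in MPP (bottom), with called regions in purple. Most points lie above 0 in the top panel (178 called higher, 2 lower) and below 0 in the bottom panel (157 of 211), where all 34 called regions are lower in KO.

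The T cell receptor alpha locus leaned the same way with more spread. It held 232 tested regions, with 3 higher and 22 lower (9.48%) in KO than in WT MPP, and 1 higher and 12 lower (5.17%) in KO than in WT LT-HSC. Summed levels were 693, 662 and 731 CPM in KO MPP against 802, 817 and 722 CPM in WT MPP, and 679, 667 and 766 CPM in KO LT-HSC against 740, 766 and 710 CPM in WT LT-HSC, so the genotypes overlapped in both. Peak_55480 at chr14:53750729-53751194 went the other way, with 3.70, 3.63 and 3.69 CPM in KO MPP against 2.08, 2.21 and 1.86 CPM in WT MPP (0.83 ± 0.14, edgeR adjusted p = 0.000606). The light chain locus Igk (22 tested) had 2 higher and 1 lower in MPP and 0 and 1 in LT-HSC, T cell receptor beta (16) and delta (19) each had 1 higher and 1 lower in MPP and 0 in LT-HSC, and the light chain locus Igl (5) had none in either. The delta locus lies inside the alpha locus, so its 19 regions and their calls are also counted among the 232 alpha regions.

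Lymphoid marker genes were read beside these loci. Regions at 9 of 11 B cell genes, with none at Vpreb1 and Igll1, which encode the surrogate light chain, numbered 155, of which 4 were higher and 4 lower in KO than in WT MPP. Their summed levels were 510 to 531 CPM in KO MPP against 512 to 532 CPM in WT MPP, and 514 to 539 CPM in KO LT-HSC against 504 to 528 CPM in WT LT-HSC. Regions at 12 of 14 T cell genes, with none at Cd3g and Cd8a, numbered 86, of which 0 were higher and 5 lower in KO MPP, with sums of 374 to 400 CPM in KO MPP against 404 to 417 CPM in WT MPP. In LT-HSC 3 of the T cell gene regions were higher and 3 lower in KO, with sums of 419 to 424 CPM in KO LT-HSC against 390 to 409 CPM in WT LT-HSC. The B cell sums overlapped in both populations, while the T cell sums were lower in KO MPP and higher in KO LT-HSC with no overlap. The 232 regions at genes of multipotent and lymphoid-primed progenitors had more higher than lower calls in both, with 17 higher and 6 lower in KO MPP and 15 higher and 0 lower in KO LT-HSC. Higher calls also prevailed over all tested regions, with 5.12% higher and 3.59% lower in KO MPP and 3.27% and 1.47% in KO LT-HSC. The sums of the 232 regions were 1420 to 1460 CPM in KO MPP against 1390 to 1400 CPM in WT MPP, and 1170 to 1200 CPM in KO LT-HSC against 1100 to 1110 CPM in WT LT-HSC. Their part in the result at the receptor loci was not tested. Without all antigen receptor loci, desert calls were 248 higher and 369 lower in LT-HSC and 409 higher and 728 lower in MPP.

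Deserts beside genes of blood stem cells had shares of calls near those of all tested regions. The 311 tested desert regions flanked by 8 of 26 HSC identity genes had 10 higher (3.22%) and 5 lower (1.61%) in KO LT-HSC, with a median log2 fold change of -0.05. Over all tested regions the shares were 3.27% and 1.47%, and over all desert regions 1.73% and 2.68%. In KO MPP 20 were higher (6.43%) and 10 lower (3.22%), with a median of 0.01, against 5.12% and 3.59% of all tested and 2.88% and 5.45% of all desert regions. At the HSC identity genes themselves, higher calls prevailed, as they did over all tested regions. Of 716 regions, 29 were higher and 3 lower in KO LT-HSC, and 70 higher and 7 lower in KO MPP. Their sums were 3690 to 3730 CPM in KO LT-HSC against 3340 to 3460 CPM in WT LT-HSC, and 2810 to 2820 CPM in KO MPP against 2580 to 2600 CPM in WT MPP, with no overlap. Nor did the genotypes overlap at 15 myeloid genes. There KO had 517 to 520 CPM against 470 to 488 CPM in WT in LT-HSC, and 658 to 685 CPM against 606 to 648 CPM in MPP. At megakaryocyte and erythroid genes KO was above WT in LT-HSC (1190 to 1200 against 1120 to 1160 CPM), with overlap in MPP. Sums at B cell, NK cell, and macrophage and endothelial genes overlapped in both populations. The part of these shifts in the desert values was not tested. A flanking gene is the nearest on either side, which shows no target. In the gap from Runx1, the gene of a transcription factor needed to form stem cells, to Setd4 (96 regions), 3 were higher and 0 lower in KO LT-HSC and 6 higher and 1 lower in KO MPP. Peak_73591 at chr16:93197262-93197719, 371.2 kb from Runx1, had 21.2, 23.9 and 25.8 CPM in KO LT-HSC against 16.8, 15.5 and 17.3 CPM in WT LT-HSC (0.51 ± 0.09, edgeR adjusted p = 0.00158). In MPP it had 3.16, 4.0 and 3.21 CPM in KO against 1.73, 2.31 and 2.1 CPM in WT (0.76 ± 0.14, edgeR adjusted p = 0.000882). KO was above WT in both populations, and MPP far below LT-HSC in both genotypes (-3.01 in WT).

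Meis1, a homeobox gene of stem cells and leukaemia, lies between a pair of deserts. The one towards Etaa1, with 34 regions tested, had 3 higher and 0 lower in KO LT-HSC and 3 higher and 1 lower in KO MPP. Its summed level was 101, 104 and 108 CPM in KO LT-HSC against 94.7, 83.6 and 90.5 CPM in WT LT-HSC, and 26.8, 26.8 and 26.6 CPM in KO MPP against 23.9, 23.0 and 26.6 CPM in WT MPP. KO sums were above WT sums in LT-HSC and met them in MPP. Peak_23918 at chr11:18216752-18217218, 663.2 kb from Meis1, had 22.0, 26.2 and 26.6 CPM in KO LT-HSC against 19.2, 18.5 and 18.5 CPM in WT LT-HSC (0.41 ± 0.08, edgeR adjusted p = 0.00401, and 0.0939 with the gene-end covariate). In MPP it had 3.74, 3.68 and 3.45 CPM in KO against 2.38, 2.25 and 1.96 CPM in WT (0.71 ± 0.13, edgeR adjusted p = 0.000672). In the desert towards Spred2 (47 tested), 1 was higher and 3 lower in KO LT-HSC and 1 higher and 4 lower in KO MPP. The higher one in LT-HSC, Peak_24038 at chr11:19380987-19381405, had 7.10, 8.17 and 6.41 CPM in KO LT-HSC against 4.82, 3.65 and 4.31 CPM in WT LT-HSC (0.77 ± 0.13, edgeR adjusted p = 0.000602).

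The deserts of 8 of 23 AP-1 and immediate early genes, which encode factors switched on within minutes of stimulation, held 360 tested regions, of which 9 were higher (2.50%) and 4 lower (1.11%) in KO LT-HSC and 10 higher (2.78%) and 8 lower (2.22%) in KO MPP. Each of these shares was below that of all tested regions. The gap from Akr1e1 to Klf6 (35 regions) had 3 higher and 1 lower in LT-HSC and 3 higher and 0 lower in MPP. Its sums were 185, 180 and 183 CPM in KO LT-HSC against 162, 157 and 161 CPM in WT LT-HSC, and 119, 117 and 110 CPM in KO MPP against 111, 101 and 109 CPM in WT MPP. Peak_43273 at chr13:4942450-4943178, 918.3 kb from Klf6, had 10.8, 11.3 and 10.3 CPM in KO LT-HSC against 5.71, 6.26 and 5.96 CPM in WT LT-HSC (0.85 ± 0.10, edgeR adjusted p = 2.05e-05). In MPP it had 5.73, 5.58 and 6.60 CPM in KO against 3.56, 4.17 and 4.40 CPM in WT (0.57 ± 0.11, edgeR adjusted p = 0.00192). KO and WT were apart in both populations. Peak_121825 at chr4:56222421-56222885, 689.9 kb from the zinc finger factor gene Klf4, had 20.2, 19.7 and 20.9 CPM in KO LT-HSC against 14.9, 14.9 and 14 CPM in WT LT-HSC (0.47 ± 0.08, edgeR adjusted p = 0.000498), and was also higher in KO MPP (0.35 ± 0.08, edgeR adjusted p = 0.00617). Its desert, Klf4 to Actl7b (69 regions), had 1 higher and 0 lower in KO LT-HSC, but 1 higher and 4 lower in KO MPP. The sums of that desert were 152, 147 and 141 CPM in KO MPP, all below the 157, 155 and 161 CPM in WT MPP. In LT-HSC its KO and WT sums overlapped.

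Myc, the growth-promoting transcription factor gene, has a known cluster of blood enhancers far downstream, in the desert that ends at Gsdmc (85 tested regions, 2 higher and 0 lower in KO LT-HSC, 3 higher and 1 lower in KO MPP). Peak_62966 at chr15:63657993-63658666, 1667.6 kb from Myc, had 14.1, 16.9 and 15.9 CPM in KO LT-HSC against 11.7, 12.5 and 10.7 CPM in WT LT-HSC (0.42 ± 0.09, edgeR adjusted p = 0.00641, and 0.0822 at most, lost without KO LT-HSC 2 or with the covariate). In MPP it had 20.4, 23.9 and 24.8 CPM in KO against 18.7, 19.7 and 17.3 CPM in WT (0.32 ± 0.08, edgeR adjusted p = 0.0176, and up to 0.152, lost without KO MPP 2, KO MPP 3 or WT MPP 3 or with the covariate). The KO libraries were above the WT libraries in both. The 346 tested regions beside 5 of 15 genes of multipotent and lymphoid-primed progenitors had 5 higher (1.45%) and 3 lower (0.867%) in KO LT-HSC and 12 higher (3.47%) and 11 lower (3.18%) in KO MPP, again below the shares over all tested regions. Among them Peak_49061 at chr13:83344625-83345121, 158.9 kb from the lymphoid and myeloid factor gene Mef2c, had 3.12, 4.17 and 3.94 CPM in KO MPP against 2.23, 2.65 and 1.73 CPM in WT MPP (0.75 ± 0.14, edgeR adjusted p = 0.00106).

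The gaps of the T cell receptor alpha and heavy chain loci, where lower calls prevailed, are given above. Most other deserts with many regions or calls held few calls, and their splits by direction were not tested. For scale, the whole table had 3.27% called higher and 1.47% lower in KO LT-HSC, and 5.12% and 3.59% in KO MPP. Nmbr to Cited2 (111 tested), which ends at the gene of a co-regulator of stem cell maintenance, had 5 higher and 0 lower in KO LT-HSC and 5 higher and 1 lower in KO MPP. Its sums were 260, 259 and 249 CPM in KO LT-HSC against 235, 223 and 220 CPM in WT LT-HSC, and 188, 208 and 209 CPM in KO MPP against 179, 189 and 176 CPM in WT MPP. Peak_13864 at chr10:17484938-17485384, 237.8 kb from Cited2, had 33.7, 34.1 and 32.8 CPM in KO LT-HSC against 25, 25.7 and 25.4 CPM in WT LT-HSC (0.40 ± 0.08, edgeR adjusted p = 0.00288, and 0.0802 with the covariate). Nr5a2 to Ptprc, which ends at the gene of the leukocyte surface phosphatase CD45, had 4 higher and 2 lower in LT-HSC and 2 and 0 in MPP. Cd83 to Jarid2 had 3 higher and 4 lower in LT-HSC and 4 and 4 in MPP, Zeb2 to Acvr2a 2 and 3 and 6 and 2, and Plk2 to Actbl2 2 and 4 and 2 and 2. Prl5a1 to Sox4 had 1 and 0 in LT-HSC and 6 and 4 in MPP. In KO MPP lower calls prevailed in Rps24 to Zmiz1 (84 tested, 1 higher and 14 lower). That desert had 1 higher and 1 lower in KO LT-HSC. Sall3 to Galr1 (95 tested) had 0 higher and 11 lower in KO MPP, and 0 and 4 in KO LT-HSC. Over all 1175 deserts, 390 had a call in LT-HSC and 529 in MPP. In 57 and 123 of these, regions of the same desert were called in opposite directions.

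Deserts beside neural adhesion and synapse genes held more lower than higher calls, as did desert regions as a whole. The 756 tested regions flanked by 62 of 78 such genes had 12 higher (1.59%) and 41 lower (5.42%) in KO LT-HSC, with a median of -0.18, where all desert regions had 1.73% and 2.68% and a median of -0.08. In KO MPP 21 were higher (2.78%) and 59 lower (7.80%), with a median of -0.19, where all desert regions had 2.88% and 5.45% and a median of -0.11. Whether the list differs from other deserts was not tested. The 1849 regions beside 65 of 86 developmental transcription factor genes were close to all desert regions, with 24 higher (1.30%) and 42 lower (2.27%) in KO LT-HSC (median -0.05) and 40 higher (2.16%) and 106 lower (5.73%) in KO MPP (median -0.10). Lrriq3 to Negr1, which ends at a neuronal growth regulator gene (17 tested), had 4 lower in each population and none higher. Its sums were 16.4, 12.6 and 14.4 CPM in KO LT-HSC against 21.5, 20.8 and 20.5 CPM in WT LT-HSC, and 21.1, 20.3 and 21.3 CPM in KO MPP against 28.6, 28.4 and 30.4 CPM in WT MPP. Peak_118688 at chr3:155962485-155962924 had 2.69, 2.54 and 2.45 CPM in KO MPP against 5.11, 4.65 and 5.21 CPM in WT MPP (-0.96 ± 0.15, edgeR adjusted p = 0.000155) and was lower in KO LT-HSC too (-0.90 ± 0.18, edgeR adjusted p = 0.00336).

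Igfbp7 to Adgrl3, a 3611 kb gap that ends at a latrophilin receptor gene (20 tested), had 0 higher and 4 lower in KO LT-HSC and 0 higher and 8 lower in KO MPP. Its sums were 46.7, 38.7 and 40.3 CPM in KO LT-HSC against 52.1, 53.2 and 48.8 CPM in WT LT-HSC, and 20, 18.7 and 18.3 CPM in KO MPP against 29.4, 29.0 and 30.5 CPM in WT MPP. Grik2 to Ascc3 (8 tested) had 5 lower in KO LT-HSC and 3 lower in KO MPP and none higher, with sums of 8.45, 10.3 and 9.09 CPM in KO LT-HSC against 16.3, 21.9 and 19.6 CPM in WT LT-HSC, and 12.6, 10.1 and 12 CPM in KO MPP against 20.8, 25.7 and 29.0 CPM in WT MPP. In these 3 deserts every KO sum was below every WT sum of its population. They were named for holding the most called regions of their list, so the sums are not separate support. The remaining marker lists had few desert regions: myeloid (98 tested, 2 higher and 0 lower in LT-HSC, 2 and 4 in MPP), megakaryocyte and erythroid (12, 0 and 0, 1 and 0), T cell (71, 0 and 2, 0 and 3), B cell (11, no call), NK cell (4, no call) and macrophage and endothelial (97, 1 and 0, 3 and 1).

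Levels and median fold changes were close on the 2 sides of the 100 kb limit, while the shares of calls were not. The 1248 regions at 100 to 110 kb from a gene had a median level of 1.17 CPM, and the 1429 at 90 to 100 kb had 1.25 CPM. In LT-HSC 2.11% were higher and 1.54% lower in KO at 100 to 110 kb, and 1.85% higher and 2.70% lower at 90 to 100 kb. In MPP 3.08% were higher and 4.21% lower in KO at 100 to 110 kb, and 2.77% higher and 5.68% lower at 90 to 100 kb. Nearer to genes, at 10 to 50 and 50 to 90 kb, 3.73% and 3.29% were higher and 4.03% and 4.72% lower in KO MPP. A majority of lower calls in KO MPP was therefore not confined to deserts. In KO LT-HSC the same 2 bins had 2.46% and 2.15% higher and 1.74% and 1.79% lower. Farther out, at 110 to 200, 200 to 500, 500 to 1000 and over 1000 kb, lower calls in KO LT-HSC made 2.36%, 2.97%, 3.71% and 4.66%, and in KO MPP 4.33%, 6.60%, 7.74% and 4.97%. Higher calls stayed between 1.36% and 2.11% in LT-HSC and between 2.17% and 3.12% in MPP. The median level over the same bins was 1.18, 1.01, 0.914 and 0.664 CPM, so level and distance moved together and their parts were not separated here. The median log2 fold change of MPP over LT-HSC in WT was -0.05 at 100 to 110 kb, -0.33 at 200 to 500 kb and -0.09 beyond 1000 kb, where the 373 regions are the fewest.

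**Figure D5:**
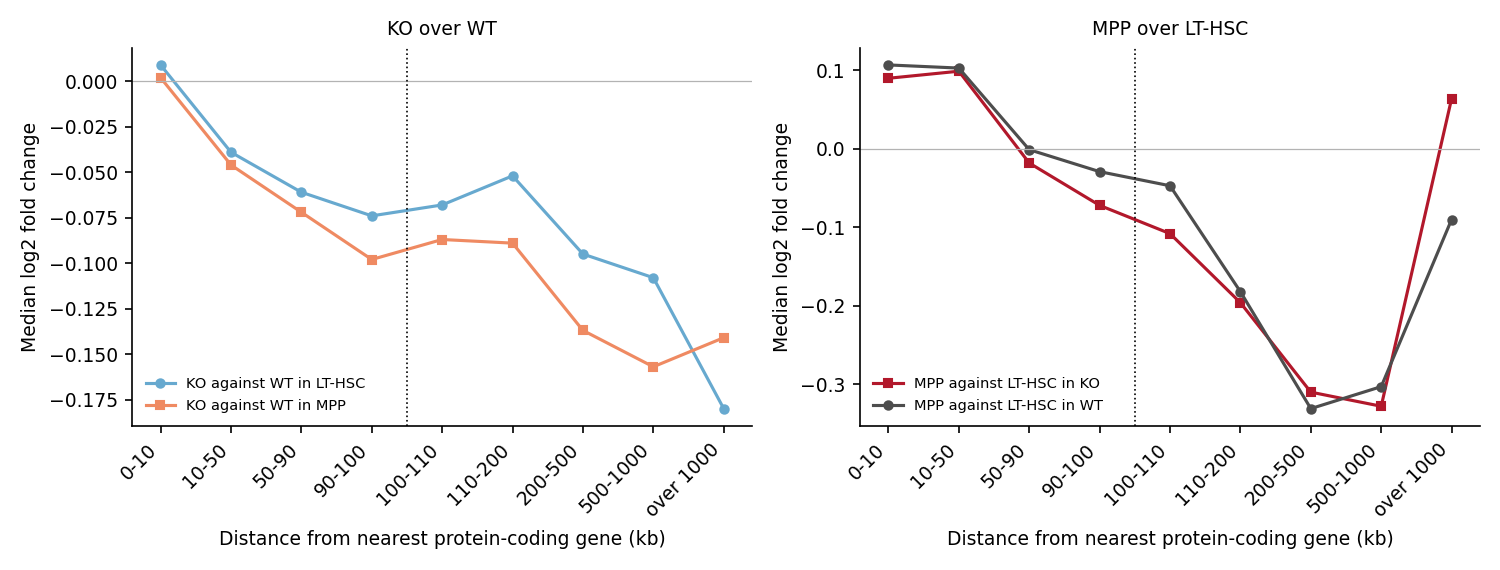
Median log2 fold change of tested regions by distance from the nearest protein-coding gene in kb, KO over WT (left) and MPP over LT-HSC (right); the dotted line marks the 100 kb limit. Medians change little across the limit (-0.07 at 100 to 110 kb and -0.07 at 90 to 100 kb for KO over WT in LT-HSC) and lie lower at 200 to 500 kb (-0.10 for KO over WT in LT-HSC, -0.14 in MPP and -0.33 for MPP over LT-HSC in WT).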

How the data were processed

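The authors deposited raw read counts per region for 12 libraries over a union of ATAC-seq peaks on GRCm38. Per the submitters' processing notes, the tools were DESeq2 1.22.1, featureCounts, MACS2 2.1.1, Bowtie2 and cutadapt, with no settings. The peaks were called on libraries of this series, so a region open in no library cannot be a member, and the sources used here do not give blacklist, duplicate or Tn5 offset handling. Distances were taken to the bodies of 21900 protein-coding genes of RefSeq's GRCm38.p6 table, and a flanking gene names a position only. No genome sequence was used, so base composition and motifs of the regions were not analysed here.

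Counts were scaled by TMM and fitted with edgeR 4.0.16 (R 4.3.3; limma 3.58.1), using 1 mean per group over all 12 libraries and a quasi-likelihood F test, 2-sided. filterByExpr kept 186373 of 188262 regions, and the Benjamini-Hochberg adjustment ran over all of them with a threshold of 0.05. The biological coefficient of variation was 8.18%. CPM use TMM-scaled library sizes, and log2 CPM a prior count of 2. Errors of fold changes are standard errors worked back from the fold change and its F statistic. Values of 1 share or median per library were compared by exact permutation tests, 6 in all. Replicates of 1 group correlated at r = 0.952 to 0.968 over log2 CPM, and their counts differed by more than sampling noise. The labels state separate mice for LT-HSC. For MPP, p-values measure the spread between libraries, which may be technical. The fit was tested on simulated data.

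The named regions are, for each genotype comparison and for the WT populations, those 6 called regions per direction that changed most, out of regions over the median level whose groups did not overlap (3 per direction in KO and for the interaction), the 5 with the highest level, and the 5 fullest and most often called deserts. For each gene list, up to 3 flanked deserts were named by their number of called regions. Start-site regions, loci and the examples inside deserts were added after values were seen. The members and the 11 gene lists, with 291 genes, were chosen with earlier results of these data known. Alternatives were DESeq2 1.42.0, other scalings and filters, a covariate for the share of counts at gene ends, a replicate block, other distance limits, and leaving out each library. 4 were chosen after seeing the data: leaving out regions above 100 CPM, leaving out antigen receptor loci, permuting same-numbered libraries together, and the first and last of these combined.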

Additional observations from a re-analysis of the deposited data

Results flagged for a closer look

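The genotype effect differed between the populations in 3 desert regions by the interaction term of edgeR's quasi-likelihood test. Peak_59012 at chr14:104715658-104716078, inside the non-coding gene D130009I18Rik, had 17.1, 16.8 and 18.6 CPM in KO MPP against 13.6, 13.5 and 11.7 CPM in WT MPP, and 5.75, 5.98 and 5.75 CPM in KO LT-HSC against 8.20, 6.69 and 7.21 CPM in WT LT-HSC. KO was above WT in MPP (0.43 ± 0.09, edgeR adjusted p = 0.00246) and below it in LT-HSC (-0.34 ± 0.11, edgeR adjusted p = 0.0568), a difference of 0.77 ± 0.14 on the log2 scale (edgeR adjusted p = 0.0435, ended in 11 of 20 other fits). Peak_109017 differed by 0.63 ± 0.09, with the values given above, and lost the call only without KO LT-HSC 2 (adjusted p = 0.0553). Peak_78496 at chr17:39847645-39848046, over Rn18s-rs5, had 465, 467 and 522 CPM in KO MPP against 381, 382 and 338 CPM in WT MPP, and 269, 245 and 219 CPM in KO LT-HSC against 268, 251 and 250 CPM in WT LT-HSC. Its effects differed by 0.47 ± 0.08 (edgeR adjusted p = 0.0337, ended in 6 of 20 other fits). The last 2 are among the 12 regions above 100 CPM.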

How the results depend on the processing

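Counts of called desert regions depended on tool, model, threshold and definition. Against 635 in LT-HSC and 1201 in MPP, DESeq2 gave 319 and 698, the gene-end covariate 123 and 472, and an adjusted p under 0.01 gave 146 and 395. With limits of 50 kb, 200 kb or 100 kb from genes of any type, the counts were 1044, 314 and 94 in LT-HSC and 2021, 634 and 142 in MPP. The same 3 definitions gave 17432, 4817 and 1224 for MPP against LT-HSC in KO, and 17910, 4985 and 1282 in WT. The interaction count of 3 became 9 with DESeq2, 1 at 0.01, and 5, 1 and 1 under these definitions. The share of counts, KO minus WT in MPP, turned to 0.102 points with intergenic counts as denominator (exact permutation p = 1.0). Over both populations the difference of -0.297 passed 0.05 with regions below the median level (-0.0694), genes of any type (-0.0208) and without regions above 100 CPM (-0.178, but p = 0.1, the smallest possible in that exact permutation test, when same-numbered libraries also moved together). The median difference, KO minus WT, lost the threshold when same-numbered libraries were permuted together (-0.0822, exact permutation p = 0.1). The cause was not tested for any of these.

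When each library was left out, counts ran from 219 to 761 (LT-HSC), 495 to 1363 (MPP), 9671 to 10397 (populations in KO), 10059 to 10632 (populations in WT) and 0 to 4 (interaction). The share differences ran from -0.739 to -0.0968 (LT-HSC), -0.253 to 0.0767 (MPP, above 0 without WT MPP 3 or KO MPP 1, 0.0150), -0.408 to -0.0868 (both) and -1.07 to -0.751 (MPP minus LT-HSC). The median differences ran from -0.0879 to -0.0727 (KO minus WT) and -0.341 to -0.326 (MPP minus LT-HSC).

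Replicate numbers were not used to pair libraries, since the labels do not tie them to mice and no set of pairs had every correlation over 0.1. Same-numbered KO and WT libraries had deviations correlated at r = -0.0367 to 0.0330. Each MPP library correlated best with the LT-HSC library of its own number and genotype (r = 0.0536 to 0.114), a hint from the data and not the design. A replicate block gave 791 calls in LT-HSC, 1379 in MPP and 7 for the interaction. Under the block, share differences had exact p = 0.5 (LT-HSC), 0.5 (MPP), 0.219 (both) and 0.03125 (MPP minus LT-HSC), and the median difference KO minus WT 0.03125.

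Limits: weak regions dominate, and at a median of 1.07 CPM a region holds few counts per library, so small differences were not detectable there. Errors of fold changes rest on a spread between libraries that the 4 groups share, and SDs on the 3 libraries of a group. Level and distance were not separated.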
